A study of Mus musculus with 4 samples.

Results

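The 5 mouse miRNAs mmu-miR-21a-5p, mmu-miR-21a-3p, mmu-miR-146a-5p, mmu-miR-146b-5p and mmu-miR-155-5p (written below without mmu), which interleukin-1β, NF-kB or STAT3 signalling can induce, were followed in esophagus and serum of L2-IL-1β mice at 46 and 28 weeks of age. They were chosen by name, and all 5 had a probe among the 1265 miRNA probes of the array. The mice carry human interleukin-1β under the L2 promoter, which acts in squamous epithelium of the mouth, esophagus and forestomach, and the esophagus becomes inflamed and acquires columnar epithelium (Barrett's esophagus). The groups were esophagus at 46 weeks, esophagus at 28 weeks, serum at 46 weeks and serum at 28 weeks. All 4 groups carried the transgene and the disease label, so no group without interleukin-1β was analysed here. Each group was 1 array, and how many mice gave RNA to it is not given in the sources used here.

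Cytokine receptors for interleukin-1 signal through the kinase Irak1 and the adaptor Traf6 to NF-kB. NF-kB raises transcription of miR-146a, which in turn represses Irak1 and Traf6, and of the host RNA of miR-155, which represses the cytokine inhibitor Socs1. STAT3, downstream of interleukin-6, raises miR-21, which represses Pdcd4 and is abundant in epithelium and fibroblasts. These relations are background and were not measured here.

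The mature sequences show which members could act on, or be read as, each other. They come from RefSeq on GRCm38.p6, where all 5 names matched, and run 5′ to 3′ with the seed (bases 2 to 8) in capitals.
miR-21a-5p: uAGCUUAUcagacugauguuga
miR-21a-3p: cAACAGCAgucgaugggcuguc
miR-146a-5p: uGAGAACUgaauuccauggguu
miR-146b-5p: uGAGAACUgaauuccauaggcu
miR-155-5p: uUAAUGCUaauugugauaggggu
The 2 miR-146 miRNAs shared the seed GAGAACU and were identical except for G18A and U21C, written with the base of miR-146a-5p first and counted from its 5′ end. The other 3 members each had a seed of their own among the members. Among the 1020 array miRNAs matched by name to a RefSeq sequence, the only further miRNA with a member's seed was miR-21c, which shares AGCUUAU with miR-21a-5p.

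The pair from miR-21a comes from the 2 arms of a single hairpin, shown here with both arms in capitals, so that both strands derive from the same transcript.
Mir21a hairpin: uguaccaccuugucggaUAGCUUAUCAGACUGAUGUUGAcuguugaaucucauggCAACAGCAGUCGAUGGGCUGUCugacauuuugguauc
It lies on the minus strand at chr11:86584067-86584158, inside the span of the protein-coding gene Vmp1 (86583858 to 86683836). The miR-146a hairpin (Mir146) lies at chr11:43374397-43374461 and overlaps no other RefSeq gene. The miR-146b hairpin lies at chr19:46342762-46342870 within the long noncoding RNA Gm36493, and the miR-155 hairpin at chr16:84714140-84714204 within its noncoding host gene Mir155hg. The gene table gives spans without exons.

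Probes for close relatives of miR-21a-5p on the same arrays show whether they read miR-21a-5p too. Bases that differ from miR-21a-5p at the same position are in capitals, as is the last base of miR-21b, which is longer than miR-21a-5p (23 against 22 bases).
miR-21b: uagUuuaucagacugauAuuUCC
miR-21c: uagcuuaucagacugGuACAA
They carry 4 and 5 substitutions in the stretch shared with miR-21a-5p. Neither relative was above the detection limit, defined below, on any of the 4 arrays. The highest net signal was 3.82 for the miR-21b probe, in esophagus at 46 weeks, and 3.88 for the miR-21c probe, in esophagus at 28 weeks, where the limits were 7.14 and 8.92. Whether the miR-21a-5p probe reads a relative was not tested. No such check exists for the miR-146 pair, whose members differ at 2 of 22 positions, so how far each probe also reads the other was not tested.

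Levels are net signals, in arbitrary units: the median intensity of the probe's spot minus the mean of the empty spots named BLANK on the same array. A miRNA was called detected where its spot was above the 95th percentile of the 97 spots without probe, which was a net signal of 7.14 in the 46-week esophagus, 8.92 in the 28-week esophagus, 6.89 in the 46-week serum and 4.38 in the 28-week serum. By this limit 578 to 807 of the 1265 miRNAs were detected per array, and 504 on all 4 arrays. Differences are on the log2 scale after 1 factor per array (between 0.844 and 1.19) that gives those 504 miRNAs the same median. The spot-noise SD beside a value joins the scatter of spots without probe and of spike-in spots within an array. It leaves out mice, extraction and hybridisation, so with 1 array per group no difference below has a replicate check or a p-value.

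Marker miRNAs separated esophagus from serum, which leaves the age labels unchecked. The summed net signal of the 2 squamous markers was 3453 in the older and 3067 in the younger esophagus, against 242 and 54.1 in serum of the same ages, and that of the 2 smooth muscle markers was 5261 and 5195, against 224 and 257. The 4 erythrocyte markers summed to 128 and 198 in esophagus, against 24713 and 37942 in serum. The 4 columnar and glandular markers, in contrast, summed to 147 and 98.3 in esophagus, against 160 and 179 in serum, and the hepatocyte miR-122-5p read 107 and 20.8 in esophagus, against 70.0 and 591 in serum.

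miR-21a-5p, a repressor of Pdcd4, read higher at 46 weeks in esophagus and in serum, though the sign turned in esophagus with the local background and in serum on the spike-in scale (both below). Its net signal was 2233 ± 118 in esophagus at 46 weeks and 1443 ± 46.7 at 28 weeks, and 743 ± 41.0 in serum at 46 weeks and 581 ± 32.0 at 28 weeks (spot-noise SD). Both esophageal readings were above both serum readings, and within each sample type the reading at 46 weeks was the higher. The scaled differences of 46 minus 28 weeks were 0.36 in esophagus (spot-noise SD 0.09, 1.29-fold) and 0.60 in serum (spot-noise SD 0.11, 1.51-fold). Neither reached 2-fold.

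The other arm of the same hairpin, miR-21a-3p, was dim. Its net signal was 18.1 ± 2.14 in esophagus at 46 weeks and 6.73 ± 2.02 at 28 weeks, and 5.04 ± 2.23 in serum at 46 weeks and 2.53 ± 1.44 at 28 weeks. Esophagus at 46 weeks was the single array on which it was detected. Against the dimmest detected miRNA of the other array, it was at least 1.68-fold higher in esophagus at 46 weeks than at 28 weeks, and at least 2.60-fold higher than in serum at 46 weeks. No fold is given for serum, where both readings were under the limit. In the authors' deposited table its processed intensity was 37.2 in the older and 16.5 in the younger esophagus, and 10.9 in the older and 5.9 in the younger serum.

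miR-146a-5p, the feedback inhibitor of Irak1 and Traf6, read lower at 46 weeks in esophagus under all 10 other ways of processing too, and higher in serum under all but the spike-in scale. Its net signal was 639 ± 33.9 in esophagus at 46 weeks and 697 ± 22.6 at 28 weeks, and 146 ± 8.37 in serum at 46 weeks and 105 ± 5.97 at 28 weeks. The esophageal readings lay well above the serum readings at both ages. The scaled difference of 46 minus 28 weeks was -0.39 in esophagus (spot-noise SD 0.09) and 0.71 in serum (spot-noise SD 0.12, 1.64-fold).

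miR-146b-5p, its relative from chromosome 19, gave nearly the same differences, with the sign turned in esophagus by the local background and in serum by the spike-in scale. It read 205 ± 10.99 in esophagus at 46 weeks and 226 ± 7.57 at 28 weeks, and 55.9 ± 3.79 in serum at 46 weeks and 39.9 ± 2.62 at 28 weeks. Its scaled differences were -0.41 in esophagus (spot-noise SD 0.09) and 0.73 in serum (spot-noise SD 0.14, 1.66-fold). Across the 4 arrays miR-146b-5p was, of 503 miRNAs, the one whose pattern was most like that of miR-146a-5p, with a root mean square difference of 0.12 (log2) after each miRNA was centred on its own mean. The sequences above differ at 2 positions, and cross-reading between their probes was not tested.

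miR-155-5p, a miRNA of activated lymphocytes and macrophages, was above the limit on all 4 arrays and close to it in serum. Its net signal was 42.4 ± 2.95 in esophagus at 46 weeks and 37.8 ± 2.35 at 28 weeks, and 9.45 ± 2.27 in serum at 46 weeks and 10.2 ± 1.54 at 28 weeks. The readings of the 2 ages overlapped within the spot noise in serum. The scaled differences were -0.10 in esophagus (spot-noise SD 0.13) and 0.13 in serum (spot-noise SD 0.41), each within its spot-noise SD, and they were 0.17 and -0.11 with no scaling. In serum at 46 weeks the signal was 1.37 times the limit.

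**Figure D1:**
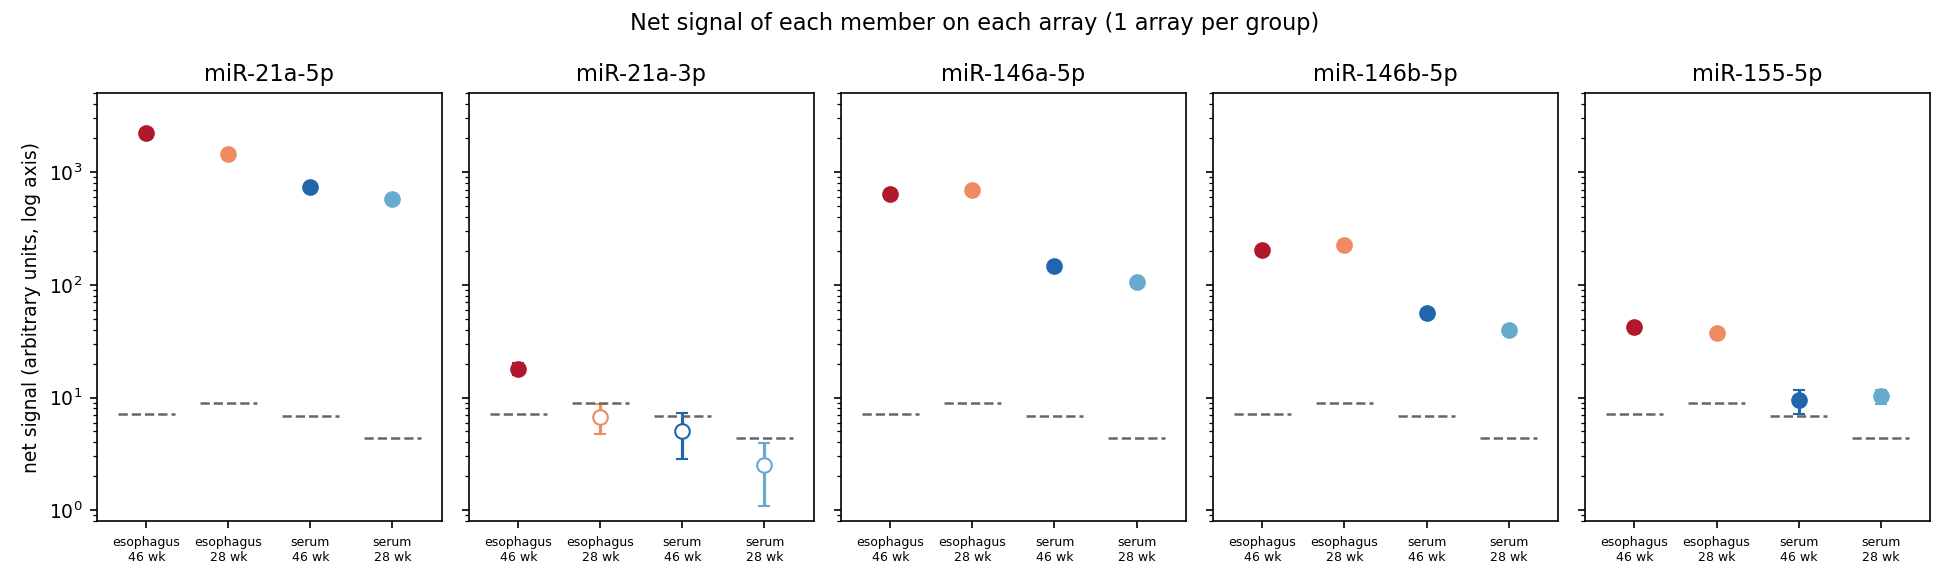
Net signal (arbitrary units, log axis) of each member on each of the 4 arrays, with bars for the spot-noise SD, filled points where detected, open points where not, and a dashed line at each array's limit. miR-21a-5p runs from 2233 in esophagus at 46 weeks to 581 in serum at 28 weeks, and miR-21a-3p is above the limit in esophagus at 46 weeks alone.

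Between ages, none of the 4 members detected on both arrays reached 2-fold in esophagus or in serum. In esophagus 3 of 562 miRNAs (0.534%) reached 2-fold in either direction, 1 higher (0.178%) and 2 lower (0.356%) at 46 weeks. In serum 75 of 610 (12.3%) did, 57 higher (9.34%) and 18 lower (2.95%) at 46 weeks. The median difference of the 4 members was -0.25 in esophagus, against -0.03 over all 562 miRNAs, and 0.66 in serum, against 0.11 over all 610. In esophagus 1 of the 4 stood above 0, and in serum all 4 did, except that none did on the spike-in scale and that miR-155-5p did not with no scaling or in the authors' deposited table. In a mixed tissue, fewer cells of a type and less RNA per cell cannot be told apart. Which cells released the miRNAs read in serum was not tested.

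The serum direction depended on the scale. Relative to the median of all serum miRNAs, which 1 factor per array leaves as it is, miR-21a-5p, miR-146a-5p and miR-146b-5p stood at 0.49, 0.61 and 0.62, and miR-155-5p at 0.02. The spike-in spots averaged 14018 net units in serum at 46 weeks and 9324 at 28 weeks. On the spike-in scale the median of all serum miRNAs was -0.72, and the members stood at -0.23 (miR-21a-5p), -0.12 (miR-146a-5p), -0.10 (miR-146b-5p) and -0.70 (miR-155-5p). The higher and lower counts over all serum miRNAs were 5 and 175 there, 30 and 38 with no scaling, and 23 and 51 in the authors' deposited table. The miR-21a-5p and miR-146 readings were thus higher at 46 weeks relative to other serum miRNAs. Relative to the spike-in spots miR-21a-5p was lower (spot-noise SD 0.11). The values of miR-146a-5p and miR-146b-5p there lay within their spot-noise SDs of 0.12 and 0.14.

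In esophagus the choice of background turned signs. The intensity around the miR-21a-5p spot was 760 at 46 weeks and 293 at 28 weeks, around miR-146a-5p it was 64.2 and 199, and around miR-146b-5p 50.6 and 156. Around most miRNA spots it was close to 51.7 and 51.4, the medians of the 2 arrays, and it was over 100 at 66 and 79 of the 1265 spots. When this local reading was used as background (normexp, then quantile normalization), the difference in esophagus was -0.07 for miR-21a-5p and 0.31 for miR-146b-5p, so both turned sign, and -0.26 for miR-146a-5p. In the authors' deposited table the 3 differences were 0.37, -0.40 and -0.38 for miR-21a-5p, miR-146b-5p and miR-146a-5p. That table also has about the BLANK mean subtracted, so it is no separate check of the background.

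In serum the local background changed the size of the miR-146a-5p difference, not its sign. The intensity around its spot was 54.0 at 46 weeks and 94.2 at 28 weeks, and its difference was 0.88 with normexp on the local background, 1.55 with the local background subtracted outright, and 0.34 with normexp on the BLANK mean. Around the miR-155-5p spot the readings ranged over the 4 arrays from 48.1 to 54.3. Why the surroundings of single spots were bright was not tested.

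**Figure D2:**
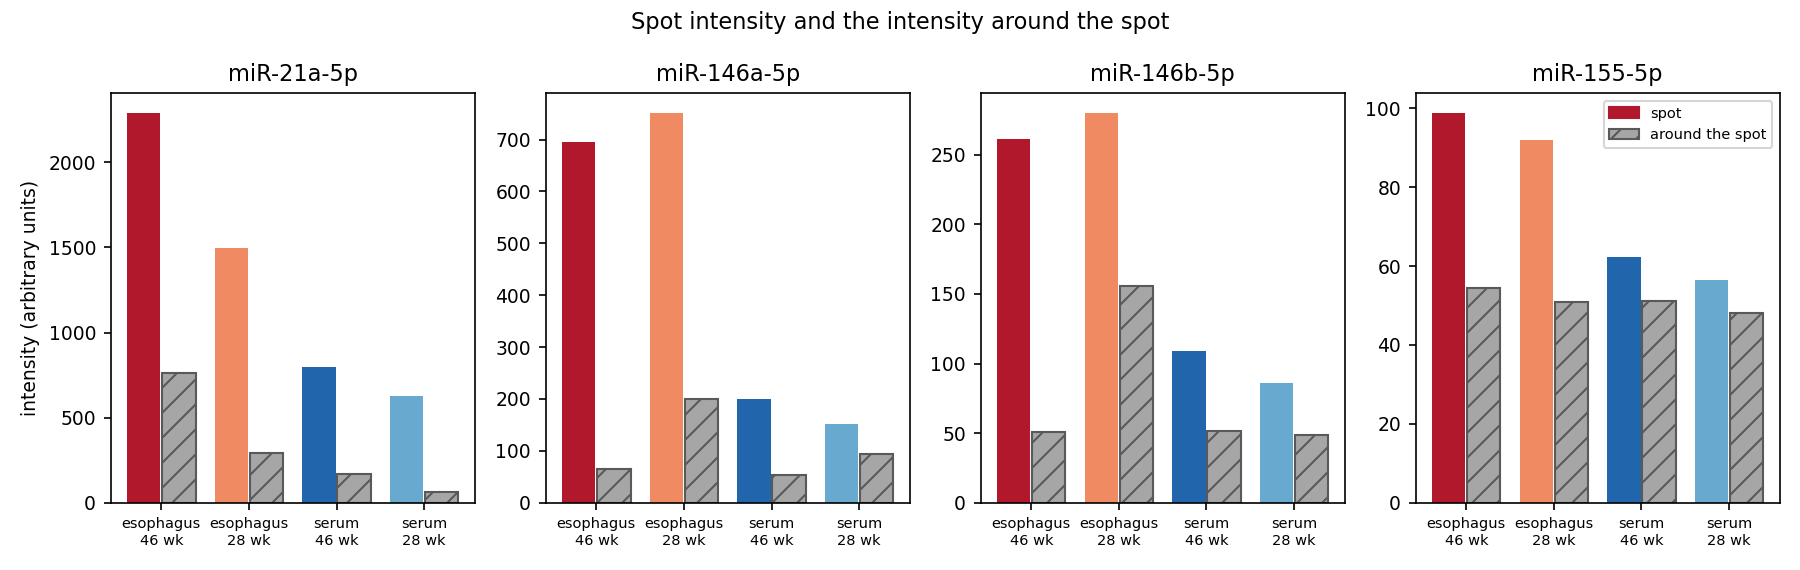
Intensity of the spot (coloured bars) and around the spot (hatched bars) for 4 members on the 4 arrays, in arbitrary units with an axis per miRNA starting at 0. The surroundings of miR-21a-5p read 760 in esophagus at 46 weeks against 293 at 28 weeks, and those of miR-146a-5p 64.2 against 199.

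**Figure D3:**
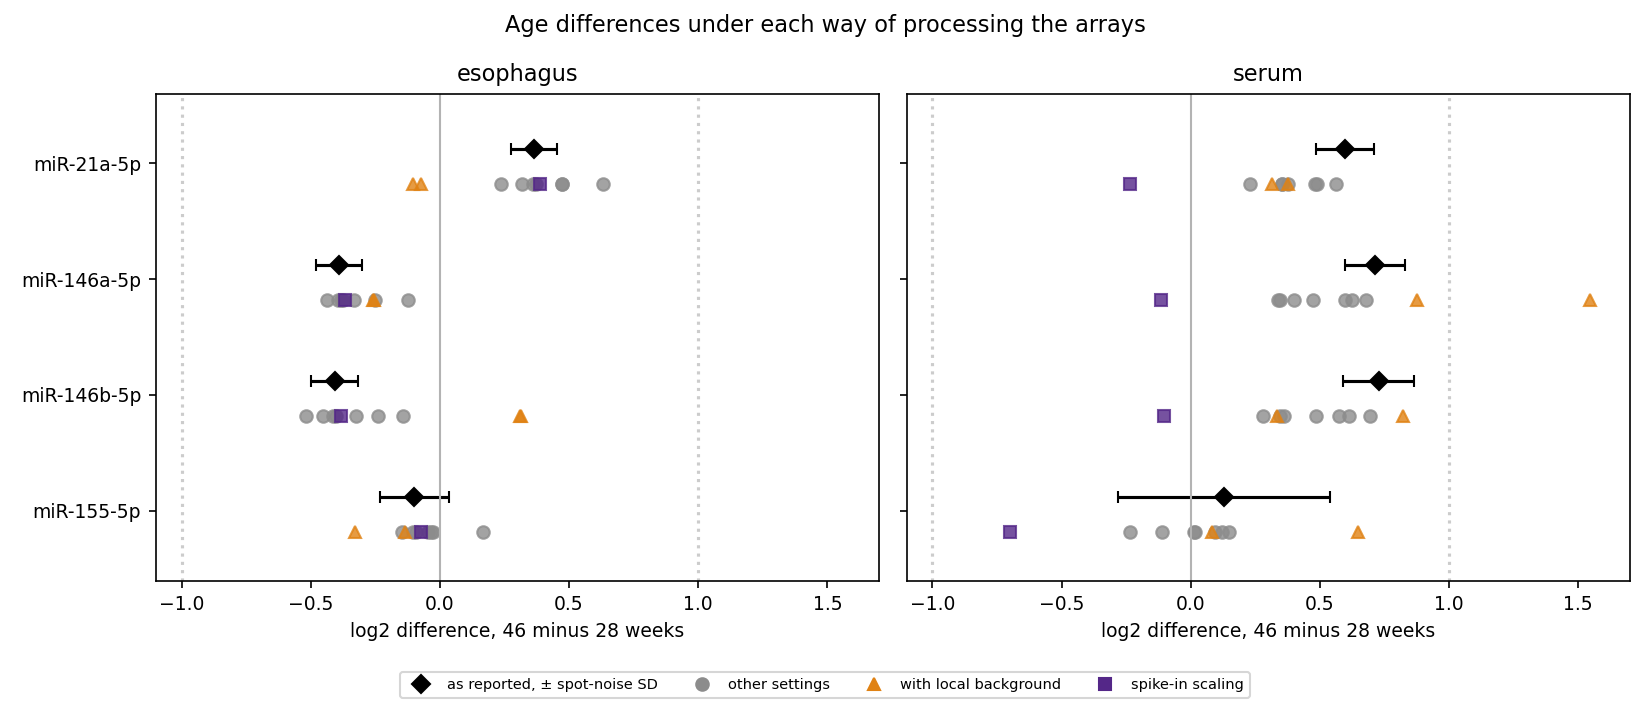
Difference of 46 minus 28 weeks (log2) of 4 members in esophagus (left) and serum (right), as reported (diamonds, with the spot-noise SD) and under 10 other ways of processing, with dotted lines at 2-fold. Triangles use the local background and squares the spike-in scale, which places all 4 serum values under 0.

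The age differences of the members did not stand apart from those of other miRNAs by size. In esophagus 91.8% of the 562 miRNAs had a lower difference than miR-21a-5p, and 11.4% and 10.1% had a lower difference than miR-146a-5p and miR-146b-5p. In serum the shares were 78.9% for miR-21a-5p, 83.3% for miR-146a-5p, 83.8% for miR-146b-5p and 51.6% for miR-155-5p.

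**Figure D4:**
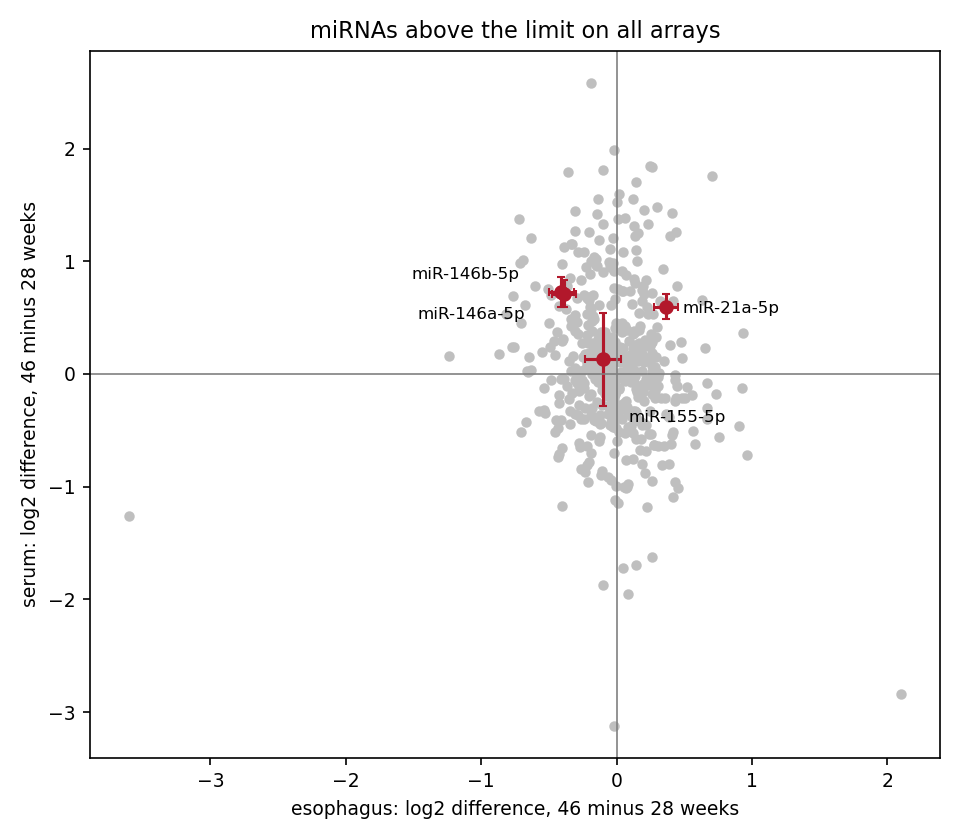
Difference of 46 minus 28 weeks (log2) in esophagus (x axis) and serum (y axis) for the 504 miRNAs detected on all arrays (grey) and 4 members (red, with the spot-noise SD). miR-21a-5p is above 0 on both axes at 0.36 and 0.60, and the miR-146 pair is at -0.39 and 0.71 and at -0.41 and 0.73.

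Esophagus exceeded serum at both ages for all 4 members detected on both arrays. At 46 weeks the difference of esophagus minus serum was 2.12 for miR-146a-5p (4.35-fold), 2.16 for miR-155-5p (4.46-fold), 1.87 for miR-146b-5p (3.65-fold) and 1.58 for miR-21a-5p (2.99-fold). The spot-noise SD was 0.36 for miR-155-5p and between 0.11 and 0.12 for the others, so the place of miR-155-5p in the order at 46 weeks is not resolved. The order of miR-146b-5p and miR-21a-5p at 46 weeks turned with normexp on the BLANK mean (1.11 against 1.25). It also turned with no background subtraction (1.21 against 1.47). At 28 weeks it was 3.22 for miR-146a-5p (9.35-fold), 3.00 for miR-146b-5p (8.01-fold), 2.39 for miR-155-5p (5.23-fold) and 1.81 for miR-21a-5p (3.51-fold). The spot-noise SD was 0.24 for miR-155-5p and 0.09 to 0.11 for the others.

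At least 4-fold was reached by 2 of the 4 at 46 weeks, where 42 of 570 miRNAs (7.37%) were that much higher in esophagus and 45 (7.89%) that much lower, 15.3% in either direction. At 28 weeks it was reached by 3 of the 4, where 57 of 559 (10.2%) were higher and 26 (4.65%) lower, 14.8% in either direction. The median of the 4 was 1.99 at 46 weeks and 2.69 at 28 weeks, against 0.08 and 0.25 over all miRNAs. The sign was the same under all 10 other ways of processing for each member and age, while the count past 4-fold ranged from 0 to 2 at 46 weeks and from 1 to 3 at 28 weeks. Several of these ways change only the factor per array. The size of the differences moved more. At 28 weeks the lowest values were 0.59 for miR-155-5p, 0.92 for miR-21a-5p, 1.12 for miR-146b-5p and 2.26 for miR-146a-5p. At 46 weeks they were 0.55, 0.82, 1.11 and 1.52 in the same order. The highest value was 3.83, for miR-146a-5p at 28 weeks. Tissue and serum RNA were extracted with different kits, so a difference of kit and a difference of sample type cannot be told apart.

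The other strands of the miR-146a, miR-146b and miR-155 hairpins were under the limit on every array but 1. miR-146a-3p and miR-146b-3p were under the limit on all 4 arrays, with net signals of -0.82 to 4.03. miR-155-3p was above it in serum at 28 weeks alone, at 6.26, on the array with the lowest limit (4.38). Its reading in esophagus at 28 weeks was higher, at 7.16, but under the limit of 8.92 there. At 46 weeks it read 5.36 in esophagus and 5.22 in serum.

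Of 10 other miRNAs linked to NF-kB, interleukin-1 or STAT3 signalling, 6 were detected at both ages in each sample type. In esophagus none of the 6 reached 2-fold, and their differences ran from -0.24 to 0.19 with a median of -0.08. In serum 4 of the 6 were at least 2-fold higher at 46 weeks, against 9.34% of all miRNAs that were, and the median was 1.06. miR-212-3p, a miRNA of the CREB-responsive miR-132 cluster, read 300.1 in serum at 46 weeks and 123 at 28 weeks (difference 1.53, spot-noise SD 0.11). miR-181b-5p, induced by STAT3 in human cells, read 58.5 and 26.4 (1.39), miR-222-3p 158 and 88.3 (1.08) and its cluster partner miR-221-3p, a repressor of the cell cycle inhibitor Cdkn1b, 433 and 249 (1.04). The other 2 were miR-31-5p at 0.65 and miR-301a-3p at 0.05. The count of 4 stayed with the BLANK detection limit and became 3 with quantile normalization over all arrays. It was 2 with no scaling, in the authors' deposited table, with factors from the 2 serum arrays alone and with the local background subtracted. It was 1 with normexp on the BLANK mean and with no background subtraction, and 0 with normexp on the local background and on the spike-in scale. In these last 4 ways 9, 7, 10 and 5 of all serum miRNAs were at least 2-fold higher.

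Most of these 6 read lower in esophagus than in serum. miR-31-5p, a keratinocyte miRNA, was higher in esophagus, by 1.34 at 46 weeks and 1.81 at 28 weeks. The remaining 5 were below 0 at both ages, from -3.67 (miR-212-3p) to -0.63 (miR-301a-3p) at 46 weeks and from -2.14 (miR-212-3p) to -0.01 (miR-181b-5p) at 28 weeks. The other 4 miRNAs of the list, miR-9-5p, miR-132-3p, miR-147-3p and miR-187-3p, read at most 8.99 net units on any array. Of these, miR-132-3p and miR-187-3p were detected in serum at 28 weeks, at 7.06 and 8.98. In serum at 46 weeks they read lower, at 5.27 and 6.66, under the limit, so the serum count above leaves them out.

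Of the leukocyte miRNAs, 1 of 4 was at least 2-fold higher in serum at 46 weeks, against 57 of all 610 miRNAs (9.34%). None of the 4 was on the spike-in scale, against 5 of all miRNAs. All 4 of 4 (miR-142-3p, miR-142-5p, miR-223-3p and miR-150-5p) were detected, and their summed net signal was 1973 at 46 weeks and 1197 at 28 weeks. The myeloid miR-223-3p read 1306 and 526 (difference 1.55, spot-noise SD 0.11), miR-142-3p 55.7 and 33.9 (0.96), miR-150-5p of lymphocytes 449.1 and 449.97 (0.24) and miR-142-5p 161 and 187 (0.03). In esophagus the sum was 985 at 46 weeks and 837 at 28 weeks, but 978 and 999 after scaling, and the 4 scaled differences lay between -0.49 (miR-150-5p) and 0.12 (miR-223-3p). The erythrocyte sum in serum was lower at 46 weeks, as given above. Most of it was miR-451a, at 23648 and 36871 net units (difference -0.40). The difference was -1.26 for miR-144-3p, while miR-486-5p went the other way, at 1013 and 923 net units (0.38). Some markers of other cells differed more between the same serum arrays, by 1.98 for miR-203-3p and 2.58 for miR-205-5p (squamous epithelium). The differences were -3.12 for miR-1a-3p and -1.95 for miR-133a-3p (striated muscle) and -2.84 for miR-122-5p. Others differed less than miR-223-3p, such as miR-126-3p at 0.24 (endothelium), miR-145a-5p at 0.42 and miR-143-3p at -0.70 (smooth muscle). Of the 4 columnar and glandular markers, miR-192-5p and miR-194-5p stood at -0.33 and -0.62. The other 2, miR-215-5p and miR-375-3p, went the other way, at 1.48 and 1.22. In esophagus the difference of 46 minus 28 weeks was 2.10 for miR-122-5p and -3.60 for the erythrocyte miR-144-3p. At 46 weeks miR-144-3p read 8.01 net units there, near the limit of 7.14. The erythrocyte miR-451a and miR-486-5p stood at -0.24 and -0.11 in esophagus, and miR-144-5p was under the limit at both ages. The part of these cells in the values of the members was not tested.

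**Figure D5:**
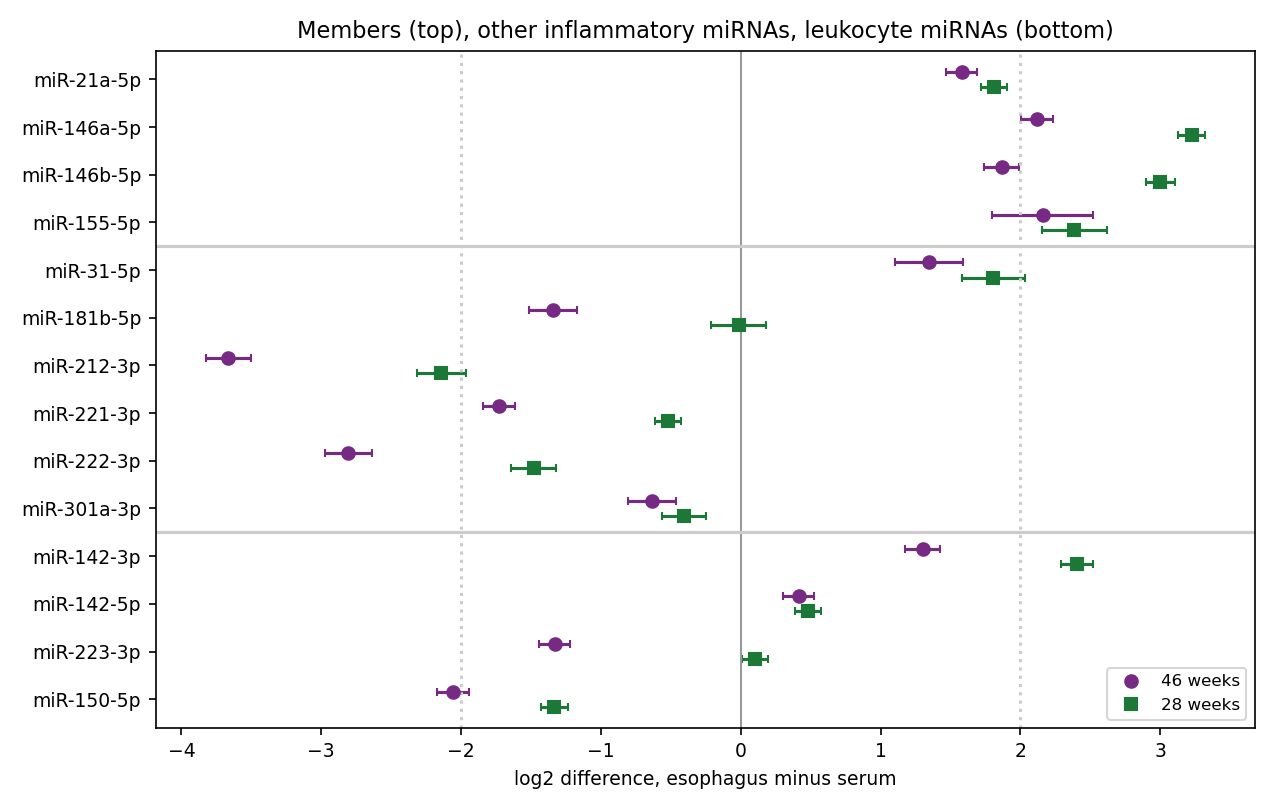
Difference of esophagus minus serum (log2, bars show the spot-noise SD) at 46 weeks (circles) and 28 weeks (squares) for 4 members, 6 other inflammatory miRNAs and 4 leukocyte miRNAs, with dotted lines at 4-fold. The members lie between 1.58 and 3.22, while 5 of the 6 other inflammatory miRNAs lie under 0.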

How the data were processed

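miRNAs of 4 RNA samples were read on 1-colour 3D-Gene arrays (dye Hy5, per the labels' protocols). The authors deposited a scanner file per array with the median intensity of each spot and around it, read at 3 scanner gains joined by fitted lines, per the file headers, without normalization. The deposited value table holds intensities that follow, within 0.0515, the spot intensity minus about the BLANK mean times 1 factor per array (median 25). The scanner's software is not given in the sources used here.

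Net signals, factors and limits were computed as described above with Python 3.11.15, numpy 2.4.6 and pandas 2.3.3. The local background was kept for alternatives because single spots had bright surroundings. Normexp (offset 50) and quantile normalization used limma 3.58.1 in R 4.3.3, as alternatives. Calls at 2-fold were tried on simulated arrays with within-array spot noise, where changes past 2-fold were planted in bright miRNAs. Changes in dim miRNAs, calls at 4-fold and variation between mice, extractions or hybridisations were not covered. Ages were called at 2-fold and sample types at 4-fold. A spot marked bad by the scanner was left out on 1 array. Sequences came from RefSeq, GRCm38.p6. Named were the 5 members, the lists described, miRNAs with a member's seed, and for each member detected on all arrays the 3 miRNAs nearest in pattern. Members and lists were chosen with earlier results of these data known. The number of arrays limits the precision.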

Additional observations from a re-analysis of the deposited data

Results flagged for a closer look

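For 3 members the difference of 46 minus 28 weeks had opposite signs in esophagus and serum, each from 1 array per group, and whether tissue and serum differ in it was not tested. For miR-146a-5p the values were -0.39 (esophagus) and 0.71 (serum). They were -0.41 and 0.73 for miR-146b-5p, whose esophageal value was 0.31 with normexp on the local background. They were -0.10 and 0.13 for miR-155-5p, both within the spot-noise SD. On the spike-in scale the 3 serum values were -0.12, -0.10 and -0.70. Opposite signs were common: 54.2% of the 504 miRNAs detected on all arrays had them. Below 0 in esophagus and above 0 in serum, as for these 3 members, were 158 of the 504 (31.35%).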

How the results depend on the processing

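The differences of the 4 members with values, and the counts of members, other inflammatory and leukocyte miRNAs past the fold, were recomputed under 10 other ways of processing, and the counts at another fold. Pattern likeness, the bounds of miR-21a-3p and the lists' medians, sums and single values were not. No paired analysis was possible because each group has 1 array and the labels give no replicate numbers. The count of members past 2-fold between ages was 0 in esophagus and in serum. With the BLANK mean plus 2 SD as detection limit it was 1 in each, miR-21a-3p, at 1.16 (spot-noise SD 0.47) in esophagus and 1.203 (1.04) in serum. By that limit 70 miRNAs were higher and 28 lower in serum over all. In serum the count of members was 1 with the local background subtracted (miR-146a-5p), where 45 of all miRNAs were higher and 25 lower. At 1.5-fold it was 3 in serum, where 133 of all 610 miRNAs were higher and 59 lower. The count past 4-fold in esophagus over serum was 3 at 28 weeks, and 1 with normexp on the local background, with normexp on the BLANK mean and with no background subtraction. Under those ways 20 to 24 of all miRNAs were higher and 13 to 17 lower. At 46 weeks the count of members was 2, and 0 with quantile normalization over all arrays, both normexp settings and no background subtraction. It was 1 with the local background subtracted, where 36 of all miRNAs were higher and 38 lower. At 2-fold it was 4, where 113 of all 570 miRNAs were higher and 102 lower. Of 16 member differences, 9 had the same sign throughout. The median of all esophageal miRNAs was 0.23 with no scaling and -0.03 as reported. Over all miRNAs, counts of higher and lower in esophagus were 1 and 2 as reported, 0 and 1 with normexp on the BLANK mean, 16 and 7 with the local background subtracted, and 11 and 14 with the BLANK detection limit. For esophagus over serum at 28 weeks they were 57 and 26, against 31 and 65 on the spike-in scale and 39 and 49 with no scaling. At 46 weeks they were 42 and 45, against 17 and 16 with normexp on the local background. Alternatives for the lists of other inflammatory and of leukocyte miRNAs were chosen after seeing the data. The files hold no spot mean, so that alternative was not run. Signal near the limit leaves miR-21a-3p, and miR-155-5p in serum, unresolved.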

Other observations

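Among the 504 miRNAs detected on all 4 arrays, patterns were compared by the root mean square difference of log2 values centred on each miRNA's mean. Nearest to miR-21a-5p were miR-31-5p (0.09), miR-378c (0.13) and miR-378a-3p (0.14). Nearest to miR-146a-5p after miR-146b-5p (0.12) were miR-138-2-3p (0.16) and let-7f-5p (0.18). Nearest to miR-146b-5p after miR-146a-5p were let-7f-5p (0.12) and let-7e-5p (0.20). Nearest to miR-155-5p were miR-199b-5p (0.06), miR-199a-5p (0.08) and miR-497-5p (0.09). Other pairs of members lay farther apart: miR-155-5p was 0.37 from miR-21a-5p and 0.31 from miR-146a-5p, and miR-21a-5p was 0.56 from miR-146a-5p. With 4 arrays, which share their scale factors, these are descriptions.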
